A study of Mus musculus with 12 samples.

Results

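Pou5f1, Sox2 and Nanog encode the core transcription factors of pluripotency, and the chromatin marks around them were described here in mouse embryonic stem cells with and without a deletion in the RNA demethylase ALKBH5. Peaks were chosen by position alone, as those overlapping 3 windows of the GRCm39 genome: 17:35795000-35840000 around Pou5f1 (45 kb), 3:34690000-34830000 around Sox2 and its downstream control region (140 kb), and 6:122630000-122710000 around Nanog and its upstream enhancers (80 kb). The windows held 141 peaks, 58 of H3K4me3, 83 of H3K27ac and 0 of H3K9me3. Merged where peaks of the libraries of a mark overlapped by at least 1 bp, they gave 53 regions (19 of H3K4me3 and 34 of H3K27ac) of 135768 in the whole series. All 12 libraries came from E14TG2a, a mouse embryonic stem cell line grown with serum, LIF and the inhibitors PD0325901 and CHIR99021, and were either wild type (WT) or Alkbh5 del-cIDR, a deletion in Alkbh5 of a part called cIDR, where IDR stands for intrinsically disordered region in the title of the series. CUT&Tag, in which an antibody directs a transposase to the mark, was used for H3K4me3 and H3K27ac, and CUT&RUN, which directs a nuclease, for H3K9me3, with 2 libraries per mark and genotype. The labels name no clone and do not say whether the 2 replicates were separate cultures, so a p-value here covers only the variation among these libraries, possibly all technical. With 2 libraries against 2, the exact permutation test used throughout (two-sided) gives no p-value below 0.333, and no difference described here could pass a threshold of 0.05.

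OCT4 (the product of Pou5f1), SOX2 and NANOG bind many enhancers of stem cells together, including those of their own genes, and keep one another expressed. OCT4 and SOX2 often bind as a pair to a joint DNA element, and NANOG is a homeodomain protein. H3K4me3 marks the promoters of active genes, H3K27ac active promoters and enhancers, and H3K9me3 silent heterochromatin. Pou5f1 has a proximal and a distal enhancer upstream of its promoter, Sox2 depends in stem cells on a control region far downstream, and Nanog has enhancers upstream on the same side as Dppa3, another gene of pluripotent cells. In the RefSeq gene table the nearest protein-coding neighbours are H2-Q10 and Tcf19 for Pou5f1, Dnajc19 and Atp11b for Sox2, and Dppa3 and Slc2a3 for Nanog.

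The promoter sequences of the 3 genes are shown because H3K4me3 was deposited as a strong peak in each window and because the joint POU-SOX element can be read in one of them. Each is the 250 bases upstream of the outermost annotated start (RefSeq, GRCm38.p6, plus strand, on chromosomes 17, 3 and 6), 5′ to 3′. Capitals mark matches to any of 5 motifs searched on both strands: the octamer ATGCAAAT, its core TTTGCAT, the SOX motif ACAATG, the joint motif GCATNACAA (which shares bases with the core and the SOX motif) and the SP/KLF motif GGGCGG.
Pou5f1: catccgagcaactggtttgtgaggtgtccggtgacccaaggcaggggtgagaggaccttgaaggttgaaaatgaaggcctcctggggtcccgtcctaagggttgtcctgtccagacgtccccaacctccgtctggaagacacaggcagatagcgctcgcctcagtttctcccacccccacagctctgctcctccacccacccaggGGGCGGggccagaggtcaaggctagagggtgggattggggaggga
Sox2: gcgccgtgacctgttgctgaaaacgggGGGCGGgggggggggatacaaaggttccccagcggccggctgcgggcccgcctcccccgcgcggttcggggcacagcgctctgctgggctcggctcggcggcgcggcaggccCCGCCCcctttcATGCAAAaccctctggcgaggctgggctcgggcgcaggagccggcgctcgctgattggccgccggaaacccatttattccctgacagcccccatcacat
Nanog: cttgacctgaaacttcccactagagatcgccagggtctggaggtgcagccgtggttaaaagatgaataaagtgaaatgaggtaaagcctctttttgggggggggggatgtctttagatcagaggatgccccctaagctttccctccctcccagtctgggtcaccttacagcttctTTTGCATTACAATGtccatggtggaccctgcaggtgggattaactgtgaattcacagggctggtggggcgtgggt

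Nanog held the joint motif at positions -72 to -64 of its start, counting the last base before the start as -1, within one run with the POU core (-75 to -69) and the SOX motif (-67 to -62). Sox2 held the POU core on the minus strand at -99 to -93 and the SP/KLF motif at -223 to -218 and, on the minus strand, at -111 to -106. Pou5f1 held a single match, the SP/KLF motif at -45 to -40. Of 32851 RefSeq promoter entries of the same length, 0.648% held the joint motif, 4.12% the POU core, 10.7% the SOX motif, 32.7% the SP/KLF motif and 1.60% the full octamer, which none of the 3 held. The sequences differed in composition, with 27 CpG dinucleotides in Sox2, 8 in Pou5f1 and 3 in Nanog, beside a median of 6 over all entries. A match is a run of letters, not a measured binding site, and these sequences could not be placed on the peaks, because the RefSeq tables are on another build than the peak lists.

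H3K4me3 formed one wide domain in each window, in every library. For Pou5f1 the widest region was 17:35816330-35819394, with peaks of 2965 and 2973 bp in del-cIDR (replicates 1 and 2, in this order throughout) and 2835 and 3014 bp in WT. For Nanog it was 6:122684074-122687247, with 3137 and 3174 bp in del-cIDR and 3044 and 3089 bp in WT. For Sox2 it was 3:34703220-34705823, with 2604 and 2481 bp in del-cIDR and 2374 and 2387 bp in WT. These peaks were wider than at least 98.6% of the peaks of their own lists, and each was the strongest of its window by −log10 q (the deposited significance after adjustment within a list). They are taken below as the promoter domain of each gene, from their width and the window they lie in, since no start site on GRCm39 was used.

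Sox2 had the strongest of these domains. Its −log10 q was 377 and 511 in del-cIDR and 313 and 392 in WT, which placed it at rank 43, 18, 115 and 47 from the top of lists of 19033 to 19881 peaks. The Nanog domain had −log10 q of 214 and 321 in del-cIDR and 270 and 253 in WT, ranks 946, 311, 269 and 534. The Pou5f1 domain had 184 and 251 in del-cIDR and 204 and 217 in WT, ranks 1566, 874, 903 and 968. By the deposited fold enrichment, a ratio of signal to the background that the peak caller used, the same 3 domains lay between 4.60 and 6.93 in all libraries, below list medians of 8.59 to 8.86. High significance with low fold was thus common to the 3 promoter domains in all 4 libraries. Their width is partly given by the choice of the widest region of each window. Whether other wide H3K4me3 peaks have a low fold too was not tested.

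**Figure D1:**
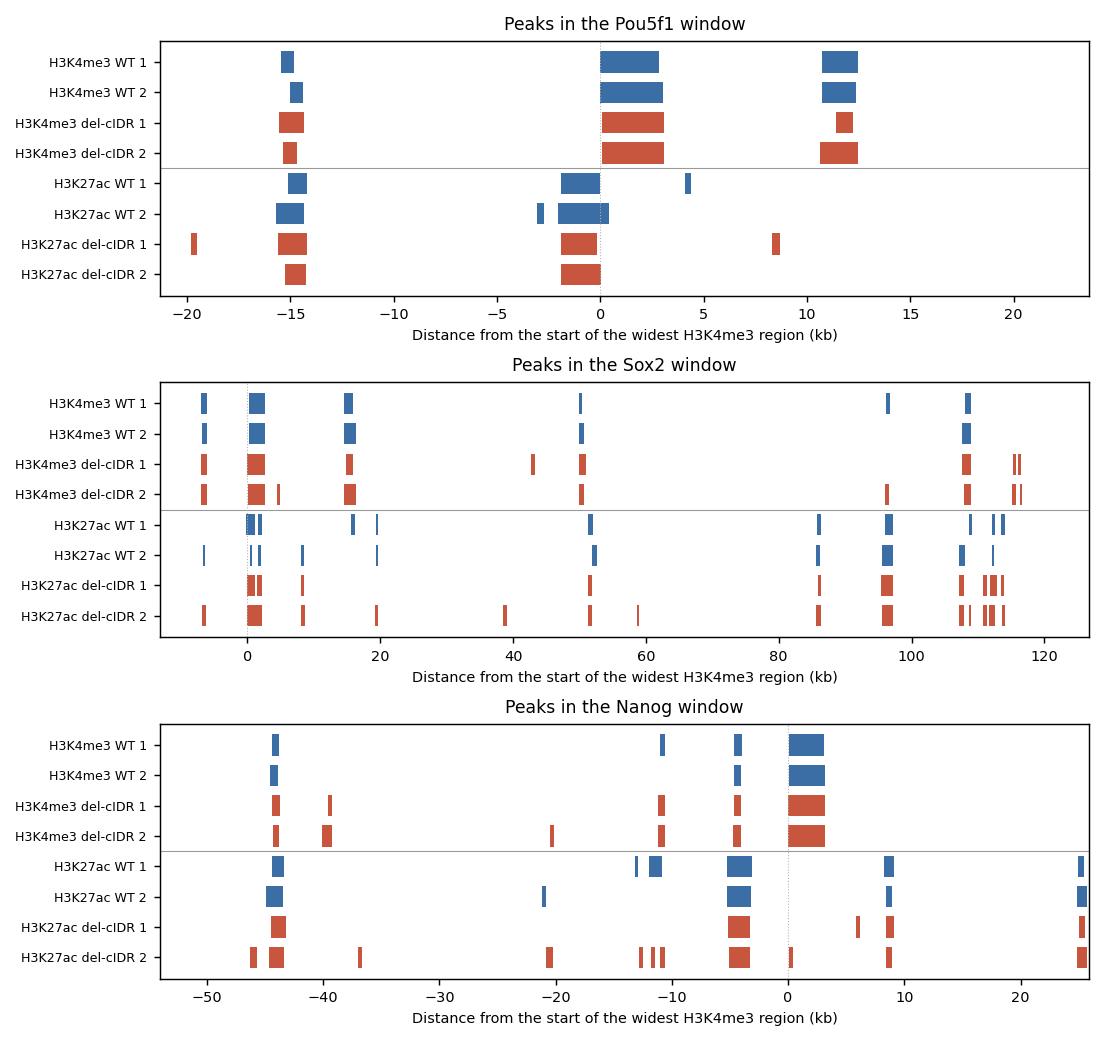
Deposited peaks of H3K4me3 and H3K27ac in the 3 windows, by library (WT blue, del-cIDR red); the x axis gives kb from the start of the widest H3K4me3 region of each window, and box length is peak length. The widest H3K4me3 domain started at or just right of 0 in each library. H3K27ac lay beside it for Pou5f1, over it for Sox2 and 3.1 kb upstream of it for Nanog.

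Besides these domains, 8 further H3K4me3 regions were found in all 4 libraries, 2 in the Pou5f1 window, 4 in the Sox2 window and 2 in the Nanog window. In the Sox2 window the one with the highest fold was 3:34696191-34697190, 6.0 kb upstream of the promoter domain, with folds of 11.4 and 10.4 in del-cIDR and 10.7 and 10.6 in WT. Further downstream, H3K4me3 lay 11.9 kb away at 3:34717716-34719611 (folds 5.47 and 4.51 in del-cIDR, 6.31 and 4.80 in WT), 47.4 kb away at 3:34753204-34754136 (folds 4.46 and 6.36, then 3.80 and 4.15) and 105.0 kb away at 3:34810851-34812213 (folds 5.41 and 4.10, then 4.89 and 4.62). In the Pou5f1 window H3K4me3 was found 14.3 kb upstream at 17:35800797-35801980 (folds 5.59 and 6.68 in del-cIDR, 5.61 and 5.00 in WT) and 7.6 kb downstream at 17:35826954-35828811 (folds 6.18 and 7.17, then 5.16 and 7.47). The Nanog window had small peaks 43.7 kb upstream at 6:122639495-122640356 (folds 4.47 and 3.67 in del-cIDR, 4.18 and 4.37 in WT) and 4.0 kb upstream at 6:122679306-122680091 (folds 2.09 and 2.39, then 2.80 and 2.70). The latter were among the weakest by fold of all H3K4me3 sites in 4 libraries, at percentiles 0.0497 and 0.180 in del-cIDR and 0.298 and 0.267 in WT.

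H3K27ac took a different position relative to the promoter domain at each gene. At Pou5f1 it lay directly upstream of the H3K4me3 domain, at 17:35814303-35816732, with −log10 q of 32.4 and 40.4 in del-cIDR and 32.2 and 25.9 in WT. Its downstream edge fell 276 and 39 bp short of the H3K4me3 peak of the same genotype and replicate number in del-cIDR, and ran 4 and 396 bp into it in WT. The peaks overlapped in both WT pairs and neither del-cIDR pair, but the 2 WT edges lay farther from each other than the lower of them lay from either del-cIDR edge. At Sox2, H3K27ac lay over the H3K4me3 domain, covering 71.0% and 83.0% of that peak in del-cIDR and 66.8% and 33.1% in WT. At Nanog the domain itself carried H3K27ac in a single library, del-cIDR replicate 2 (355 bp, −log10 q 3.57).

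The strongest H3K27ac of the 3 windows was upstream of Nanog, at 6:122678860-122680938, 3.1 kb from the promoter domain. It had −log10 q of 112 and 119 in del-cIDR and 90.3 and 77.3 in WT and ranked 31, 50, 18 and 29 in lists of 23407 to 33460 peaks. Its summit varied by 38 bp over the 4 libraries, and the weak H3K4me3 peaks 4.0 kb upstream lay inside it. A further H3K27ac region of the Nanog window, 43.2 kb upstream at 6:122639129-122640888, was also in all 4 libraries, with −log10 q of 21.6 and 19.6 in del-cIDR and 12.4 and 9.23 in WT, and likewise held H3K4me3 in all 4. Downstream of the domain, 6:122692314-122693201 (5.1 kb) and 6:122708893-122709823 (21.6 kb) had H3K27ac in all 4 libraries and no H3K4me3. Their folds were 3.65 and 4.23 in del-cIDR and 3.33 and 4.45 in WT at the nearer one, and 3.72 and 2.98, then 3.43 and 3.66, at the farther one.

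In the Sox2 window the strongest H3K27ac was far from the gene. The region 3:34798590-34800449, 92.8 kb downstream of the promoter domain, had −log10 q of 22.1 and 28.7 in del-cIDR and 23.5 and 13.7 in WT, above the H3K27ac at the promoter domain itself (10.7 and 13.6, then 7.10 and 5.79). H3K4me3 was called inside it in del-cIDR replicate 2 and WT replicate 1. A cluster of 5 regions followed between 104.6 and 110.9 kb, of which 3:34814856-34816160 was in all 4 libraries, with folds of 3.10 and 3.42 in del-cIDR and 2.86 and 2.90 in WT. The 4 others of the cluster were in 2 or 3 libraries, and 1 of them, 3:34813932-34814607, was in both del-cIDR libraries alone. The other sites in all 4 libraries lay 48.7 kb downstream at 3:34754545-34755884 (folds 3.80 and 4.03 in del-cIDR, 3.66 and 5.07 in WT) and 83.0 kb downstream at 3:34788864-34789657 (folds 6.39 and 5.36, then 3.92 and 4.26). In the Pou5f1 window the other region in all 4 libraries was 17:35800659-35802127, 14.2 kb upstream, with folds of 5.33 and 5.77 in del-cIDR and 5.45 and 4.94 in WT, over H3K4me3 of all 4 libraries.

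**Figure D2:**
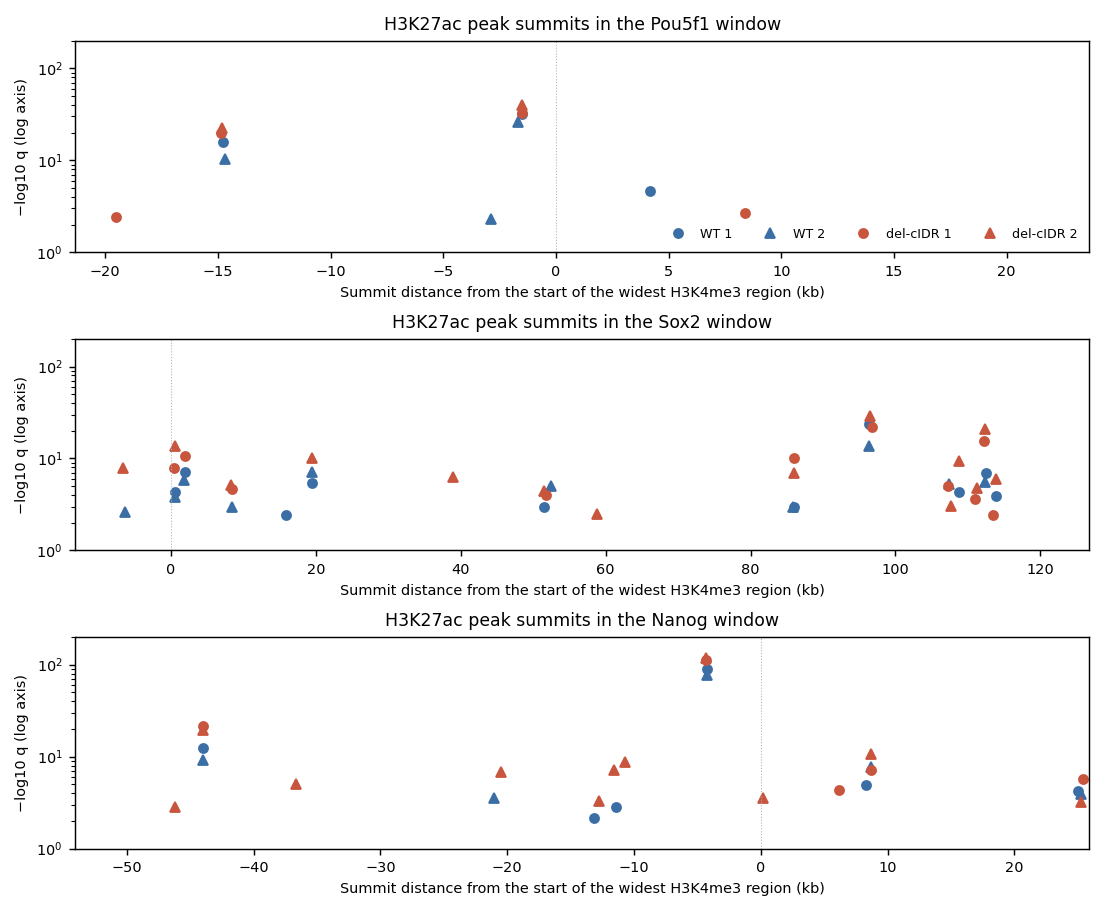
Summits of the H3K27ac peaks in each window, with distance in kb from the start of the widest H3K4me3 region on the x axis and the deposited −log10 q on a log y axis; colour gives the genotype and symbol the replicate. The Nanog site just upstream of 0 stood highest, with 77.3 to 119 in the 4 libraries, and the highest Sox2 site lay 92.8 kb from the promoter domain.

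Of the 34 H3K27ac regions, 13 overlapped an H3K4me3 region (38.2%, beside 33.4% of all 50439 H3K27ac regions) and 21 did not. Those with H3K4me3 were in all 4 libraries in 6 of 13 cases, beside 49.8% over the genome. The 21 enhancer-type regions without it were in all 4 libraries in 5 cases (23.8%, beside 15.1% over the genome) and in a single library in 12 (57.1%, beside 59.1% over the genome). No enhancer-type region of the Pou5f1 window was in more than 1 library. By its definition this class leaves out the H3K27ac directly upstream of the Pou5f1 domain, which was in all 4 libraries. That H3K27ac overlapped the H3K4me3 peak of the same replicate number in WT alone. The Nanog site 3.1 kb upstream and the Sox2 site 92.8 kb downstream are left out too, since each overlapped an H3K4me3 region. Of the 15 H3K27ac regions of either kind found in a single library, 7 were in del-cIDR replicate 2, which also has the longest list, and 3, 3 and 2 were in del-cIDR replicate 1, WT replicate 1 and WT replicate 2. Their −log10 q ran from 2.17 to 6.76, and 13 of the 15 were below the median of their own list. The other 2, in del-cIDR replicate 2, were above its median of 5.89: 3:34741638-34742378 in the Sox2 window with 6.34 and 6:122663246-122663841 in the Nanog window with 6.76. Absence from a list does not show absence of the mark.

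H3K9me3 had 0 peaks in the 3 windows in all 4 of its libraries, whose lists held 21705 to 43785 peaks. Windows without it were common, since 50.8% of all 45-kb tiles of the genome, 21.2% of 140-kb tiles and 35.1% of 80-kb tiles had no H3K9me3 peak in any of the 4 libraries. By the active marks the windows were dense. Tiles of equal length with as many bases under H3K4me3 made up 0.139% to 0.218% of all tiles for Pou5f1, 0.772% to 2.31% for Sox2 and 0.691% to 2.12% for Nanog, over the 4 libraries. For H3K27ac they made up 0.220% to 2.05%, 0.227% to 1.30% and 0.212% to 1.31% in the same order. Many of these tiles were empty, and the windows were drawn around known genes. Tiles with no H3K4me3 peak in any library made up 74.7%, 54.0% and 64.8% in that order. Those with no H3K27ac peak made up 60.6%, 38.7% and 49.8%.

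The comparison of genotypes asked whether the deletion in ALKBH5 went with a change of these marks. In the Sox2 window the bases under H3K4me3 were 8368 and 9092 in del-cIDR and 6468 and 6960 in WT, or 8730 ± 512 against 6714 ± 348 (SD, n = 2 each), a log2 ratio of 0.38 (exact permutation p = 0.333). Both del-cIDR libraries were above both WT libraries, as in 17.0% of the 140-kb tiles with an H3K4me3 peak. In the Nanog window the values were 5208 and 6107 against 4823 and 4376, or 5658 ± 636 against 4600 ± 316 (SD, n = 2 each, log2 ratio 0.30, exact permutation p = 0.333), again without overlap, as in 17.1% of the 80-kb tiles with a peak. In the Pou5f1 window they were 4999 and 5520 against 5199 and 5283 (log2 ratio 0.0051, exact permutation p = 1), and the groups overlapped. Restricted to peaks of −log10 q 5 or more, the Nanog log2 ratio was -0.059, in the other direction, and the Sox2 ratio 0.29. Without del-cIDR replicate 2 the Nanog ratio was 0.18. Chromosome 6, where Nanog lies, held 5.04% and 5.12% of the H3K4me3 peaks in del-cIDR and 5.34% and 5.45% in WT, a difference opposite to that in the window, and its part in the result was not tested.

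For H3K27ac the Sox2 window had 8028 and 10892 bases under peaks in del-cIDR and 6872 and 5886 in WT, or 9460 ± 2025 against 6379 ± 697 (SD, n = 2 each, log2 ratio 0.57, exact permutation p = 0.333). The groups did not overlap, as in 38.0% of the 140-kb tiles with an H3K27ac peak. The del-cIDR lists were longer, with 28853 and 33460 peaks against 25804 and 23407. As a share of all bases under peaks in its library the window had 393 and 480 ppm in del-cIDR and 390 and 389 in WT, a log2 ratio of 0.16, with nearly all of the excess in del-cIDR replicate 2. Without that library the ratio in bases was 0.33, and with peaks of −log10 q 5 or more it was 0.99. In the Nanog window H3K27ac covered 4875 and 7606 bases in del-cIDR and 6009 and 5177 in WT (log2 ratio 0.16, exact permutation p = 1), and in the Pou5f1 window 3857 and 2931 against 3093 and 4099 (log2 ratio -0.083, exact permutation p = 0.667). In both of these the groups overlapped, and the lower del-cIDR library was replicate 1 for Nanog and replicate 2 for Pou5f1. As a share of bases under peaks the Nanog value went to -0.25, the opposite direction, and without del-cIDR replicate 2 to -0.20. With peaks of −log10 q 5 or more it was 0.48 (exact permutation p = 0.333), and without del-cIDR replicate 1 it was 0.44. Values without a WT library were 0.27 (replicate 1) and 0.055 (replicate 2). Chromosome 6 held 5.48% and 5.61% of the H3K27ac peaks in del-cIDR and 6.50% and 6.52% in WT, and its part in the Nanog values was not tested. As a share of bases under peaks the Pou5f1 value was -0.49, and at equal list lengths it was -0.25. It turned to 0.10 without del-cIDR replicate 2 and to 0.13 without WT replicate 2, and was -0.29 and -0.27 without replicate 1 of del-cIDR and of WT.

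**Figure D3:**
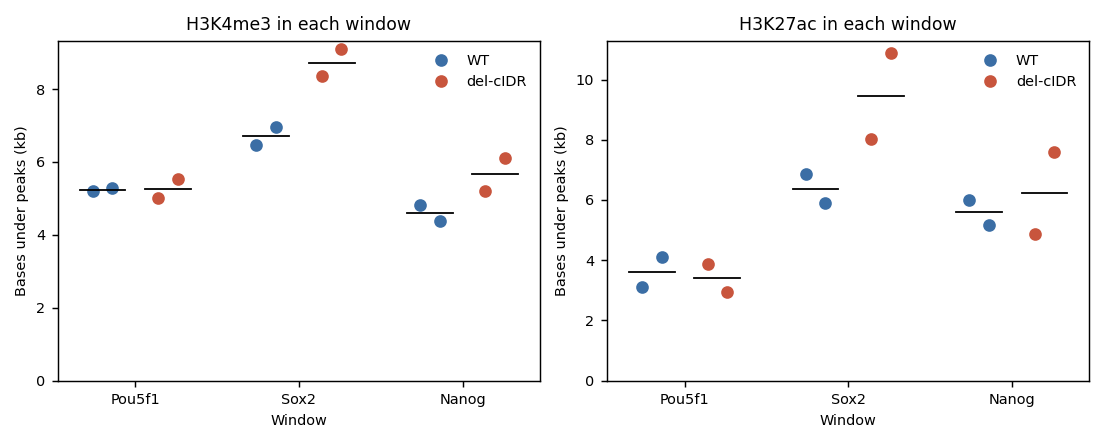
Bases under peaks (kb, y axis from 0) in each window for H3K4me3 and H3K27ac, with each point a library and each bar the mean of 2. For H3K4me3 the del-cIDR libraries were above WT in the Sox2 window (8368 and 9092 against 6468 and 6960 bases) and the Nanog window, and the genotypes overlapped in the Pou5f1 window.

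Regions called only in a genotype had a peak in both of its libraries and in neither of the other. For H3K4me3 there were 3 of 19 only in del-cIDR, beside 2.08% of all H3K4me3 regions, and 0 only in WT, beside 2.84%. They were 3:34818351-34818918 and 3:34819237-34819926, 112.5 and 113.4 kb downstream of the Sox2 promoter domain and beyond its H3K27ac cluster, and 6:122643987-122644820, 39.3 kb upstream of that of Nanog. All were weak, with −log10 q of 2.78 and 5.53, then 5.95 and 4.93, then 3.50 and 3.11 for del-cIDR replicates 1 and 2, and none overlapped H3K27ac. When only peaks of −log10 q 5 or more were used, 0 were left in either genotype, and without del-cIDR replicate 1 the count was 5. With peaks within 1000 bp merged the count was 2, since the 2 regions near Sox2 lie within that distance of each other. For H3K27ac 1 of 34 regions was only in del-cIDR, beside 6.42% over all H3K27ac regions, and 0 only in WT, beside 1.83%. That region, in the downstream cluster of Sox2, had −log10 q of 3.60 and 4.80, and it was no longer separate when peaks within 1000 bp were merged. When only peaks of −log10 q 5 or more were used, the count was again 1, but for another region. This was the site 83.0 kb downstream of Sox2, with −log10 q of 10.1 and 6.98 in del-cIDR. In WT it had weaker peaks, of 2.94 and 2.96. With 1 library left out the count was 8 and 4 (without del-cIDR replicates 1 and 2), then 2 and 3 (without WT replicates 1 and 2).

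To set strengths side by side, the fold of each region found in all 4 libraries was ranked within each library among the same set, 16093 regions of H3K4me3 and 13460 of H3K27ac. All 3 promoter domains ranked lower in H3K4me3 in del-cIDR than in WT. Pou5f1 was at percentiles 6.72 and 8.19 in del-cIDR and 11.8 and 9.96 in WT, Sox2 at 17.8 and 17.6 against 19.9 and 21.6, and Nanog at 4.11 and 5.11 against 11.3 and 7.48. The mean differences were -3.45, -3.01 and -4.78 percentile points (exact permutation p = 0.333 each), and without WT replicate 2 that of Nanog was -7.52. A smaller share of all H3K4me3 peaks also lay on chromosome 6 in del-cIDR (5.04% and 5.12% against 5.34% and 5.45% in WT). Its part in the Nanog difference was not tested. Of the 11 H3K4me3 regions of the windows, 4 had both WT libraries above both del-cIDR libraries, beside 19.4% of the 16093, and 1 had the reverse, also beside 19.4%. Ranked by −log10 q instead, the genotypes overlapped for Pou5f1 (-1.77, exact permutation p = 1) and Nanog (-1.41, exact permutation p = 0.667). For Sox2 that ranking gave 0.31 (exact permutation p = 0.333), in the other direction. Its domain was above 99.4% of each list by −log10 q, which limits a rise but not a fall. By bases under peaks the direction was opposite, with both del-cIDR libraries above both WT libraries in 5 of the 11 regions, beside 18.1%, and the reverse in 0, beside 21.7%. The Sox2 and Nanog promoter domains were among those 5.

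For H3K27ac the most significant site of each window ranked lower by fold in del-cIDR. The site 3.1 kb upstream of the Nanog domain was at percentiles 57.3 and 52.0 in del-cIDR and 77.5 and 74.2 in WT, a difference of -21.3 (exact permutation p = 0.333). A smaller share of all H3K27ac peaks also lay on chromosome 6 in del-cIDR (5.48% and 5.61% against 6.50% and 6.52% in WT). Its part in the Nanog difference was not tested. The site 92.8 kb downstream of Sox2 was at 39.3 and 49.1 against 78.4 and 66.0, a difference of -28.0, and the flank of the Pou5f1 domain at 12.2 and 16.1 against 28.8 and 21.6, a difference of -11.0 (exact permutation p = 0.333 for both). Without WT replicate 2 the latter was -16.6. In the other direction, the site 83.0 kb downstream of Sox2 was at 58.1 and 30.7 against 11.1 and 15.9, a difference of 30.9 (exact permutation p = 0.333) that was 18.8 without del-cIDR replicate 1 and 45.4 without replicate 2. The WT peaks of that site were weak, with −log10 q of 2.94 and 2.96 beside WT list medians of 5.05 and 5.03. The H3K27ac over the Sox2 promoter domain was at 12.2 and 15.5 against 12.1 and 14.9, and its groups overlapped. In all, 3 of 11 H3K27ac regions had both WT libraries above both del-cIDR libraries, beside 20.5% of the 13460, and 2 the reverse, beside 19.8%. By bases under peaks 2 of 11 were larger in both del-cIDR libraries, beside 35.1%, and 2 in both WT libraries, beside 9.42%; the Nanog site was one of the latter, with 1939 and 1818 bp against 2079 and 2010 bp. Ranked by −log10 q, the differences were -4.73 for the Pou5f1 flank and -4.27 for the Sox2 site at 92.8 kb, where the groups overlapped (exact permutation p = 1). For the Nanog site that ranking gave -0.13 (exact permutation p = 0.333). By −log10 q the Pou5f1 and Sox2 sites were at percentiles 95.4 to 98.0 and 88.0 to 95.6 of their lists. These are percentiles of whole lists, not of the 13460 regions ranked above. The Nanog site was at 99.9 in all 4. Such a position limits a rise but not a fall, most of all at the Nanog site.

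**Figure D4:**
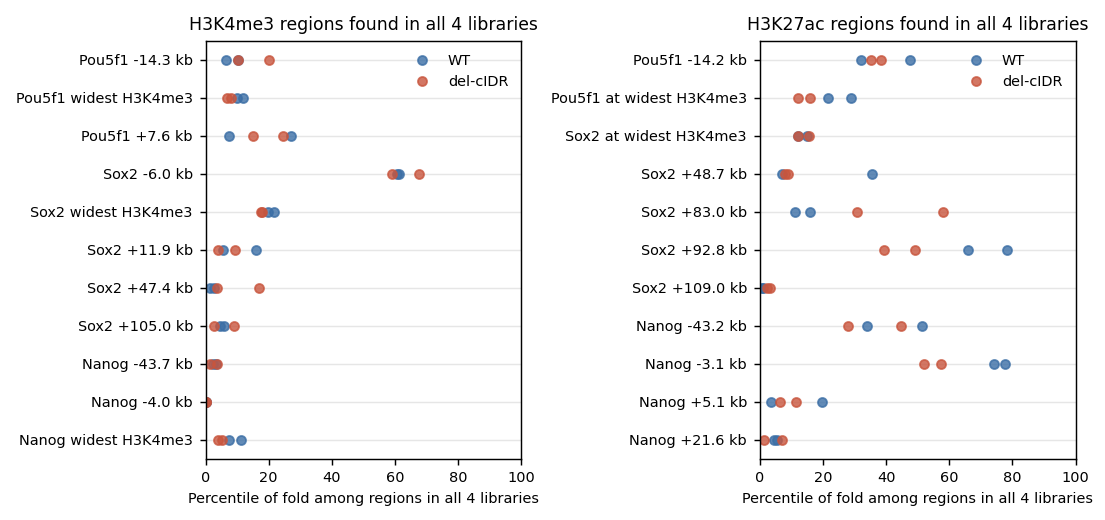
Percentile of the deposited fold within each library, among the regions of that mark found in all 4 libraries (x axis), for the 11 H3K4me3 and 11 H3K27ac regions of the windows; row names give the gene and the gap to its widest H3K4me3 region in kb (plus is downstream). For H3K4me3, WT points lay right of del-cIDR points at all 3 widest domains and at the Nanog site 4.0 kb upstream. For H3K27ac they did so at the Nanog site 3.1 kb upstream, the Sox2 site 92.8 kb downstream and the flank of the Pou5f1 domain. The reverse held downstream of Sox2, at 47.4 kb for H3K4me3 and at 83.0 and 109.0 kb for H3K27ac.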

How the data were processed

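Deposited peak lists of 12 libraries were used, 1 per library, so peaks were not called on pooled replicates. Per the submitters' processing notes the build was GRCm39 and the processing used MACS2, BWA, fastp, Picard, SAMtools and featureCounts, for which no version, setting or control library is given in the sources used here. For each peak the authors deposited its fold (a ratio of signal to background), a −log10 p and a −log10 q, and for narrow peaks (H3K4me3, H3K27ac) the summit offset; H3K9me3 came as broad peaks. The lists hold no read counts, so depth is unknown and no counting interval is given; a longer list may come from a deeper or cleaner library. Peaks on chromosomes 1 to 19, X and Y were kept and coordinates count from 1.

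Peaks of the 4 libraries of a mark were merged where they overlapped by at least 1 bp (Python 3.11.15, pandas 2.3.3, numpy 2.4.6), after a check on made-up lists. The 2 genotypes were tested over libraries by two-sided exact permutation. Folds were ranked only within a list, or among regions found in all 4 libraries. Tiles are consecutive stretches of the length of a window, up to the last peak of each chromosome. All regions of the windows were accounted for. Promoter-type regions are H3K4me3 regions in all 4 libraries, and enhancer-type regions are H3K27ac regions that overlap no H3K4me3 region. These received values per library together with regions called only in a genotype. Both names follow the rule alone, and the first also takes in H3K4me3 regions away from the promoter domains, some of them under H3K27ac. The windows and measures were chosen with earlier results of these data known. The RefSeq tables at hand are on GRCm38.p6, so they served for promoter sequences and neighbour names only (all 3 genes matched). Other pluripotency genes, and genes most alike in pattern, were not analysed here. Alternatives were a minimum −log10 q of 5, equal list lengths, peaks covering at least 50% of a region, merging within 1000 bp, ranks by −log10 q, leaving out each library and pairing by replicate number; the window as a share of all bases under peaks was an alternative chosen after seeing the data.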

Additional observations from a re-analysis of the deposited data

How the results depend on the processing

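Over all alternatives, 40 of 48 values of covered length, 152 of 174 of fold rank and 22 of 36 counts of genotype-only regions kept their direction or stayed within 1.5 times. The cause of the changes was not tested unless stated. Covered length (log2 ratio) reversed for Nanog H3K4me3 with a −log10 q of at least 5 (-0.059), and for Nanog H3K27ac at equal list lengths (-0.086) and as a share of all bases under peaks (-0.25). With 1 library left out it ran from -0.068 to 0.075 for Pou5f1 H3K4me3, from -0.29 to 0.13 for Pou5f1 H3K27ac and from -0.20 to 0.44 for Nanog H3K27ac. H3K4me3 regions only in del-cIDR went from 3 to 0 with a −log10 q of at least 5, also where it was required in both libraries of the genotype alone, and were 3 to 5 with 1 library left out. H3K27ac regions only in del-cIDR went from 1 to 0 with that limit in both libraries, 2 with 50% cover and 0 with merging within 1000 bp. They were 2 to 8 with 1 library left out, where fewer libraries need to meet the rule. With peaks of −log10 q 5 or more the count was again 1, but for another region, 83.0 kb downstream of Sox2. H3K27ac regions only in WT went from 0 to 1 with 50% cover and were 0 to 3 with 1 library left out. Ranks by −log10 q reversed the difference for H3K4me3 at the Sox2 domain (0.31, near the top of every list by that measure), 11.9 kb downstream of it (2.69) and 43.7 kb upstream of Nanog (2.45), and for H3K27ac 14.2 kb upstream of Pou5f1 (0.72) and 43.2 kb upstream of Nanog (7.10). Equal list lengths reversed H3K27ac at the Sox2 domain (-1.57). With 1 library left out, the rank difference changed sign in these regions. For H3K4me3 the ranges were -7.46 to 12.89 (Pou5f1, 7.6 kb downstream), -1.84 to 6.30 (Sox2, 6.0 kb upstream), -10.12 to 1.24 (Sox2, 11.9 kb downstream), -2.88 to 4.43 (Sox2, 105.0 kb downstream) and -1.79 to 0.94 (Nanog, 43.7 kb upstream). For H3K27ac the ranges were -11.27 to 4.43 (Pou5f1, 14.2 kb upstream), -1.56 to 2.86 (Sox2, at the domain), -29.52 to 1.69 (Sox2, 48.7 kb downstream), -15.75 to 2.44 (Nanog, 43.2 kb upstream), -12.46 to 6.30 (Nanog, 5.1 kb downstream) and -3.95 to 2.22 (Nanog, 21.6 kb downstream).

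Replicate numbers shared by the genotypes are no stated pairing, and replicate differences of the genotypes were uncorrelated over regions (-0.0033 for H3K4me3, 0.0060 for H3K27ac). With the replicate number as a block, covered length in the Sox2 window had log2 ratios of 0.38 (H3K4me3) and 0.56 (H3K27ac), and no direction changed. At equal list lengths 2 regions, H3K4me3 47.4 kb downstream of Sox2 and H3K27ac 21.6 kb downstream of Nanog, were no longer in all 4 libraries and have no rank there. Depth is unknown, and sites under the deposited q limits cannot be seen.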
